A study of Mus musculus with 21 samples.

Results

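The nuclear genes of respiratory complexes II to V were followed in mouse oocytes and granulosa cells. They were chosen by gene symbol, taking Sdha to Sdhd for complex II, symbols that begin with Uqcr for complex III, Cox4 to Cox8 for complex IV and Atp5 for complex V, and leaving out 7 pseudogene symbols that hold -ps. This gave 49 gene identifiers under 48 symbols among the 55335 identifiers of each library, with 4 in complex II, 8 in complex III, 19 in complex IV and 18 in complex V. One symbol, Atp5o, had 2 identifiers, and the second was listed at 0 in all 21 libraries. Cox6c2 was kept by its symbol but is annotated as a processed pseudogene, and the other 48 identifiers are annotated as protein coding. The symbols are older ones, so that, for example, Atp5b is the beta subunit of ATP synthase, while assembly factors such as Atpif1 and subunits whose symbols start otherwise were not members.

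The study asked whether human umbilical cord mesenchymal stem cells (UC-MSCs), sorted by the surface receptor LRP1, changed ovarian cells of aged ICR mice. Young mice were 6 to 8 weeks old and Aged mice 18 months old, and the Aged + Unsorted, Aged + LRP1high and Aged + LRP1low groups were 18-month-old mice whose ovaries were sampled 3 weeks after a transplant of unsorted, LRP1high or LRP1low UC-MSCs. Oocyte libraries numbered 3 Young, 2 Aged, 2 Aged + Unsorted, 3 Aged + LRP1high and 2 Aged + LRP1low, and granulosa libraries 1, 2, 1, 3 and 2 in the same order. The transplant was placed under the ovarian capsule, and oocytes and granulosa cells were taken by rupturing follicles. How many cells or mice gave a library was not given in the sources used here, so a p-value measures the spread between these libraries, which may be partly technical.

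Complex II (succinate dehydrogenase) and complex III (cytochrome bc1) pass electrons to cytochrome c, complex IV (cytochrome c oxidase) passes them from cytochrome c to oxygen, and complex V (ATP synthase) uses the proton gradient to make ATP. Complex II is coded wholly in the nucleus, whereas the catalytic core of complex IV, cytochrome b of complex III and a pair of membrane subunits of complex V come from mitochondrial DNA, so those complexes need both genomes. A growing oocyte depends on mitochondrial respiration and takes pyruvate from the granulosa cells around it, which are strongly glycolytic.

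The libraries differed widely. Aligned bases ranged from 0.278 to 3.40 Gb, and 1 gene, Gm10800, held up to 86.6% of a library's summed FPKM (fragments per kilobase of transcript, scaled to the mapped total, a level per length). Of the 12 oocyte libraries, 8 were rich in 10 oocyte markers such as Zp3 and Gdf9, with marker medians from 84.9 to 1001 FPKM, whereas Young 1, Aged 1 and both Aged + LRP1low libraries had medians of 0.892, 11.6, 5.02 and 7.77 FPKM. Granulosa markers such as Fshr and Inha had a median of 74.9 FPKM in Young and 21.4 in Aged + LRP1high 3 granulosa cells, and between 0.0419 and 1.93 in the other granulosa libraries. One library went against its label. The library labelled granulosa Aged + Unsorted had an oocyte marker median of 800 FPKM and a granulosa marker median of 1.04, and correlated with oocyte Aged + Unsorted 2 at r = 0.967 across genes, the highest of all pairs of libraries. It is given apart below. In bulk libraries such as these, fewer cells of a type and less RNA per cell cannot be told apart.

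A background level was read from 1437 olfactory and vomeronasal receptor genes, which are silent outside sensory tissue. A member was counted as detected when its FPKM was above the 95th percentile of these receptors in the same library. This cutoff ran from 0.0562 FPKM in oocyte Aged + LRP1high 1 to 10.6 in oocyte Aged 1, and was 5.43 in oocyte Aged 2. In Aged + LRP1low oocytes it was 5.54 and 6.10, so counts of detected members depend on the cutoff as well as on the members. In oocytes, Young libraries had 31, 27 and 45 of 49 members detected, Aged 12 and 38, Aged + Unsorted 39 and 45, and then 45, 40 and 38 in Aged + LRP1high and 21 and 18 in Aged + LRP1low. Among granulosa libraries, the Young one had 43 members detected, the Aged ones 0 and 2, the Aged + LRP1high ones 22, 14 and 32 and the Aged + LRP1low ones 24 and 20. The library labelled granulosa Aged + Unsorted had 43. The fewest members among oocytes were detected in Aged 1 and both Aged + LRP1low, which were low in oocyte markers, followed by Young 2, which was not. Both Aged granulosa libraries held almost no member signal.

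**Figure D1:**
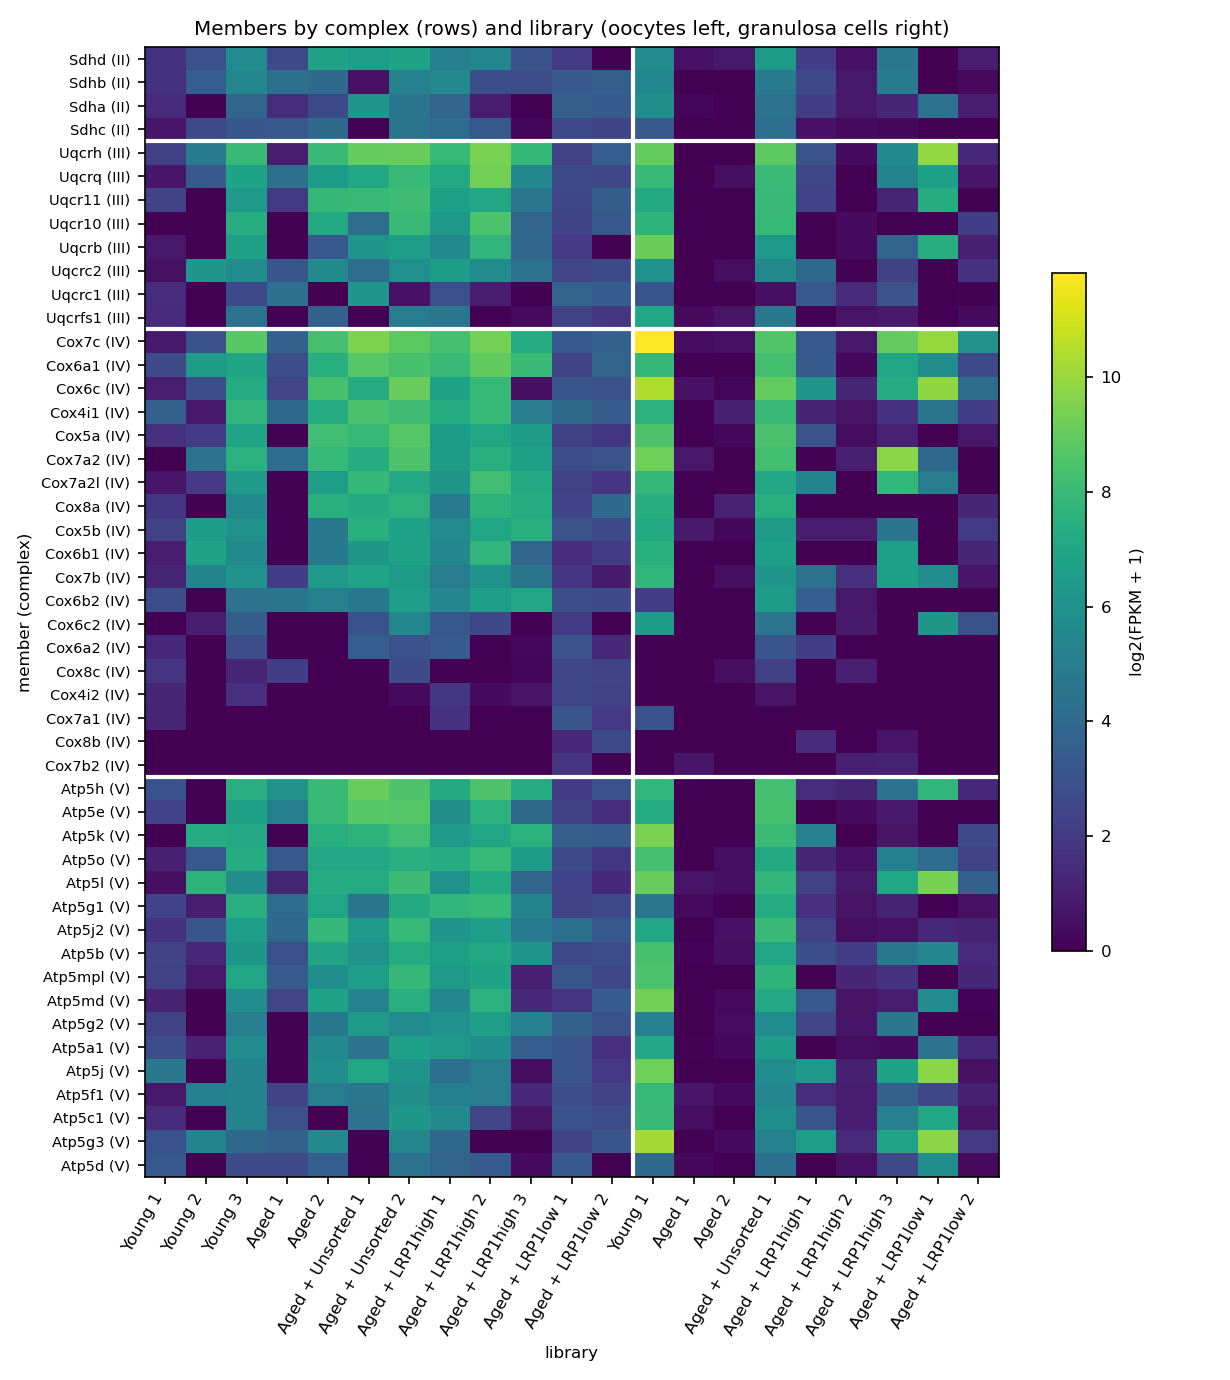
Level of each member with a value above 0 in any library (rows, by complex, highest mean oocyte level first) in each of the 21 libraries (columns), as log2(FPKM + 1). Both Aged granulosa libraries are lowest, with a median of 0, and low medians also occur in oocyte Young 1 and 2 (1.74 and 0.878 FPKM), of which Young 2 is rich in oocyte markers, in oocyte Aged 1 and both Aged + LRP1low, and in all Aged + LRP1high and Aged + LRP1low granulosa libraries (0.543 to 3.68 FPKM), and the highest value is Cox7c in Young granulosa cells, at 3618 FPKM.

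Among the 8 oocyte libraries rich in oocyte markers, 24 of 49 members were detected in every library, namely 2 of 4 in complex II, 3 of 8 in complex III, 10 of 19 in complex IV and 9 of 18 in complex V. Cox7b2, Cox8b and the second Atp5o identifier were detected in none of the 8. The members were unevenly sampled even there. Young 2, with 3.02 Gb but only 3135 genes at 1 FPKM or more, had 22 members at 0, Aged 2 and Aged + Unsorted 1 had 10 each, and Young 3, Aged + Unsorted 2 and Aged + LRP1high 1 had 4 each. A core subunit could be at 0 in such a library, as Sdha was in Young 2 and Aged + LRP1high 3, where a gap in sampling and a lack of transcript cannot be told apart.

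The order of the complexes was similar in most libraries. Complex II, with 4 genes, had the lowest sum in 20 of the 21 libraries, and complexes IV and V together held most of the signal. In Young 3 oocytes the summed FPKM was 115 for complex II, 805 for III, 1576 for IV and 1374 for V. In Aged 2 the same sums were 147, 788, 1965 and 1825, in Aged + Unsorted 2 they were 195, 1507, 3187 and 2864, and in Aged + LRP1high 2 they were 58.0, 2077, 2930 and 2072. Over all members the Young libraries had sums of 144, 948 and 3870 FPKM, the Aged ones 358 and 4726, the Aged + Unsorted ones 6156 and 7753, the Aged + LRP1high ones 3487, 7136 and 2257 and the Aged + LRP1low ones 294 and 265. The ranges of Young, Aged and Aged + LRP1high oocytes overlapped, and both Aged + Unsorted libraries lay above both Aged and all Young libraries.

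**Figure D2:**
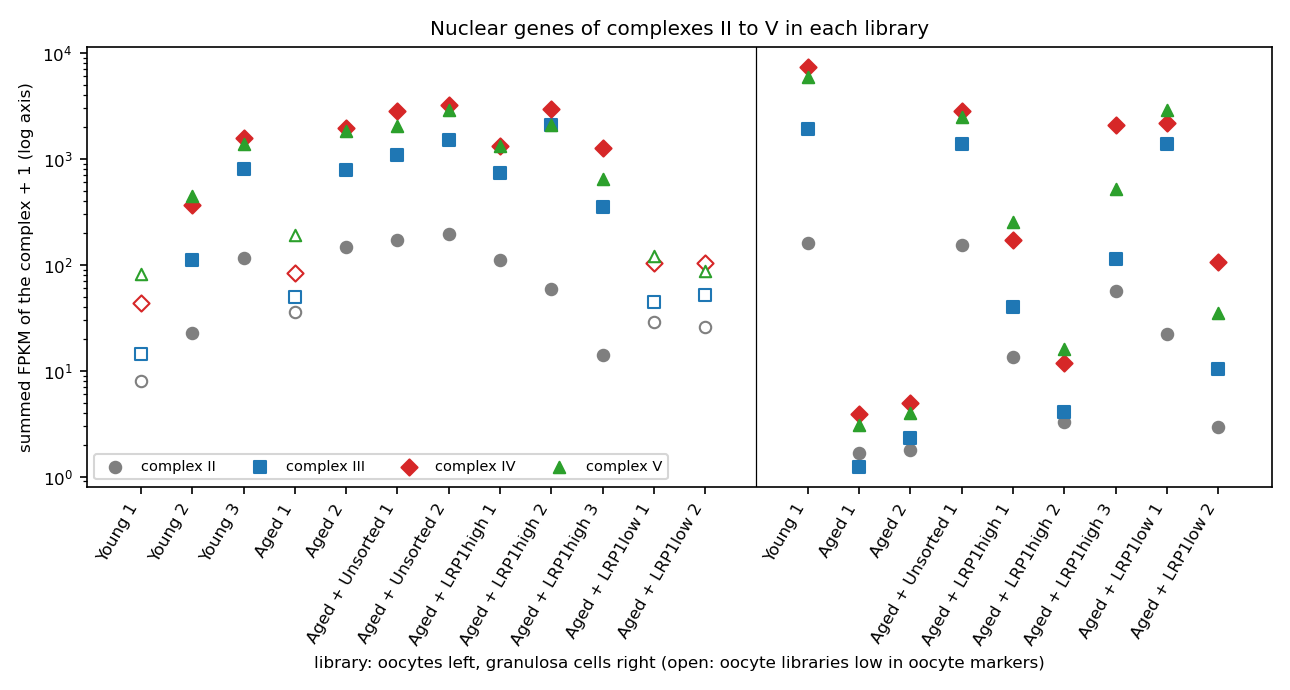
Summed FPKM of the members of each complex, plus 1, on a log axis, for each library, with oocytes left and granulosa cells right. Open symbols mark the 4 oocyte libraries low in oocyte markers, where the complex IV sum was 43.0 to 103 FPKM against 368 to 3187 FPKM in the other 8.

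The most abundant member of each complex in oocytes, by mean FPKM over the 12 libraries, was Sdhd, Uqcrh, Cox7c and Atp5h. Sdhd, a membrane anchor of complex II, was at 2.28, 6.3 and 50.3 FPKM in Young oocytes, 5.06 and 110 in Aged, 97.5 and 115 in Aged + Unsorted, 33.6, 42.6 and 6.71 in Aged + LRP1high and 2.99 and 0 in Aged + LRP1low oocytes. Uqcrh, the hinge protein of complex III, was at 3.69, 28.9 and 260 FPKM in Young oocytes, 0.866 and 259 in Aged, 527 and 530 in Aged + Unsorted, 238, 692 and 231 in Aged + LRP1high and 4.05 and 10.5 in Aged + LRP1low oocytes. Cox7c, a small subunit of complex IV, was at 0.739, 6.58 and 428 FPKM in Young oocytes, 11.6 and 327 in Aged, 746 and 461 in Aged + Unsorted, 324, 657 and 152 in Aged + LRP1high and 8.4 and 11.6 in Aged + LRP1low oocytes. For all 4 the lowest level was in Young 1, Aged 1 or Aged + LRP1low, or for Atp5h in Young 2. Atp5h, subunit d of the stalk of complex V, was at 6.87, 0 and 172 FPKM in Young oocytes, 66.9 and 245 in Aged, 546 and 364 in Aged + Unsorted, 146, 369 and 155 in Aged + LRP1high and 3.32 and 6.86 in Aged + LRP1low oocytes. Its level of 0 in Young 2 stood beside an Atp5l level of 196 FPKM in the same library, the other way round from Young 3, where Atp5h was at 172 and Atp5l at 56.7 FPKM.

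The same 4 members in granulosa cells were highest in Young (Cox7c), in Aged + LRP1low 1 (Uqcrh) or in the library labelled granulosa Aged + Unsorted (Sdhd at 86.7 and Atp5h at 314 FPKM). Cox7c was at 3618 FPKM in Young granulosa cells, 0.32 and 0.45 in Aged, 8.23, 0.715 and 504 in Aged + LRP1high and 990 and 66.2 in Aged + LRP1low granulosa cells, and 394 in the library labelled granulosa Aged + Unsorted. It held 49.2% of the complex IV sum in Young granulosa cells and 45.9% and 62.6% in Aged + LRP1low 1 and 2. In the other libraries labelled granulosa its share was lower, from 4.81% in Aged + LRP1high 1 to 24.1% in Aged + LRP1high 3. The 8 oocyte libraries rich in oocyte markers had 1.79% to 27.2%, a range that holds those lower shares. Uqcrh was at 516 FPKM in Young granulosa cells, 0 and 0 in Aged, 7.02, 0.289 and 47.8 in Aged + LRP1high and 962 and 1.49 in Aged + LRP1low granulosa cells, and 451 in the library labelled granulosa Aged + Unsorted. Aged + LRP1low 1 was the granulosa library with the highest luteal markers, at a median of 519 FPKM, and a granulosa marker median of 0.151.

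Promoters show the members' regulatory sequence, and those of the most abundant member of each complex are printed with those of Cox6a1 and Cox6b2, complex IV genes that passed a test below. Each line holds the 200 bases before the RefSeq transcript start (GRCm38.p6), 5′ to 3′ along the gene, and capitals mark a searched motif.
Sdhd (chr9:50603850-50604049, minus strand): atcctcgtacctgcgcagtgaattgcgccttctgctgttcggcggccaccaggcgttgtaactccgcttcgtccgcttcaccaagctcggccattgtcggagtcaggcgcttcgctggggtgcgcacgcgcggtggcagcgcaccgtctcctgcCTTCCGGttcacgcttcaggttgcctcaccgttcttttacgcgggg
Uqcrh (chr4:116075071-116075270, minus strand): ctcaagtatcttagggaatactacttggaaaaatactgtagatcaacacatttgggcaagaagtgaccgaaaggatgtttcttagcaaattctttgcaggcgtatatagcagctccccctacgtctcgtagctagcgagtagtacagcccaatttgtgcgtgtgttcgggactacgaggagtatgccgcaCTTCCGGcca
Cox7c (chr13:86046796-86046995, minus strand): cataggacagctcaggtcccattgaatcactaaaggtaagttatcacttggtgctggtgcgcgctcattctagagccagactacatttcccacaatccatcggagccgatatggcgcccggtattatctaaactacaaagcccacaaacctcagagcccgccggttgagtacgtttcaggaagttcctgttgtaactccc
Atp5h (chr11:115419920-115420119, minus strand): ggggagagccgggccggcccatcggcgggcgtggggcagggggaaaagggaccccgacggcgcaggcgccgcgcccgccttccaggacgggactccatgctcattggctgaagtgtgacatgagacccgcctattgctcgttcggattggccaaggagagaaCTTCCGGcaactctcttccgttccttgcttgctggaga
Cox6a1 (chr5:115348959-115349158, minus strand): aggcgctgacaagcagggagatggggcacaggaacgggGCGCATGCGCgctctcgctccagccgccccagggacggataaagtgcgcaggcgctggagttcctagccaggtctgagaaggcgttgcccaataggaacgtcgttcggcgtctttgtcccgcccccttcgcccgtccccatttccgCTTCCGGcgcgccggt
Cox6b2 (chr7:4753095-4753294, minus strand): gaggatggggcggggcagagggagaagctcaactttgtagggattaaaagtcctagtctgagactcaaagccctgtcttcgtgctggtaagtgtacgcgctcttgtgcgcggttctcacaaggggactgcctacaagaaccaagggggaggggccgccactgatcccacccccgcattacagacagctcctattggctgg

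Sdhd, Uqcrh, Atp5h and Cox6a1 each hold the core of an ETS site, read here as its reverse complement, the motif that GABPA (also called nuclear respiratory factor 2) binds, and Cox6a1 also holds an NRF1 motif. The RefSeq promoter table, whose 300-base windows reach a little past the start, matched 36 of the 48 symbols. On either strand, CCGGAAG (ETS) was found in 13 of 36 members, or 36.1%, and in 9.93% of 27025 genes. The NRF1 motif, the palindrome in the Cox6a1 line, was found in 4 of 36 members, namely Atp5g2, Atp5k, Cox6a1 and Uqcrc1, or 11.1%, and in 1.07% of all genes. AAGATGG (YY1) was found in 11.1% of members and 7.28% of genes, and TATAAA in 11.1% of members and 15.7% of genes. None of these motifs contains another. A match is only a description of letters in this window.

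Complexes IV and V hold several subunits that exist in tissue forms, and these were compared within each library. Subunit c, of which a ring turns in the membrane part of complex V, is coded by Atp5g1, Atp5g2 and Atp5g3 on chromosomes 11, 15 and 2. The genes differ in the leading peptide that is removed on import and give the same mature protein. The coding bases just before the stop codon, which hold the mature subunit, are printed because reads were assigned among these genes by bases alone. Capitals mark the positions at which the 3 genes are not all alike.
Atp5g1: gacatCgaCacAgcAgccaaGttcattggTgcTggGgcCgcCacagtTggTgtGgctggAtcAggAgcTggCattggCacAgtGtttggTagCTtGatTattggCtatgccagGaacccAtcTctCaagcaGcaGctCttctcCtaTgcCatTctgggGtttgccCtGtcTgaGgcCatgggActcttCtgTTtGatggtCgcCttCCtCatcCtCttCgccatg
Atp5g2: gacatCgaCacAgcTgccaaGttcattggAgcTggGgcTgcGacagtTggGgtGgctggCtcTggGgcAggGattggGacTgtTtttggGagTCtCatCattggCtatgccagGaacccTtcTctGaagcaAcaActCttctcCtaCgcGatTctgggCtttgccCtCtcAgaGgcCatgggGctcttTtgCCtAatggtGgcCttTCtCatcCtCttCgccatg
Atp5g3: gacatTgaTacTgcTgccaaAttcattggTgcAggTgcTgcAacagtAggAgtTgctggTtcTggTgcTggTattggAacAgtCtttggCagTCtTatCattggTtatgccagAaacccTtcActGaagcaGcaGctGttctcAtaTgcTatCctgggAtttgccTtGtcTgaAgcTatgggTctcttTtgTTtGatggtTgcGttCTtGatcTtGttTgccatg

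All 75 codons code the same amino acid in the 3 genes. Atp5g1 and Atp5g2 have the same base at 191 positions (84.9%), Atp5g1 and Atp5g3 at 180 (80.0%) and Atp5g2 and Atp5g3 at 177 (78.7%), and no run shared by any pair is longer than 20 bases. Atp5g1 was at 4.19, 0.878 and 173 FPKM in Young oocytes, 16.7 and 123 in Aged, 23.3 and 151 in Aged + Unsorted, 220, 238 and 38.3 in Aged + LRP1high and 4.3 and 5.07 in Aged + LRP1low oocytes. Atp5g2 was at 3.99, 0 and 32.6 FPKM in Young oocytes, 0 and 26.8 in Aged, 81.3 and 51.8 in Aged + Unsorted, 63, 95.6 and 34.2 in Aged + LRP1high and 11.5 and 6.69 in Aged + LRP1low oocytes. Atp5g3 was at 6.76, 39.4 and 14.9 FPKM in Young oocytes, 11.4 and 49.4 in Aged, 0 and 40.2 in Aged + Unsorted, 15.1, 0 and 0 in Aged + LRP1high and 4.43 and 7.79 in Aged + LRP1low oocytes. Atp5g1 thus held the largest share of the set in 6 of the 8 oocyte libraries rich in oocyte markers, from 52.8% in Aged + LRP1high 3 to 78.5% in Young 3. Young 2, where Atp5g3 held 97.8%, and Aged + Unsorted 1, where Atp5g2 held 77.7%, were the exceptions.

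Granulosa libraries with a sum of subunit c genes over 100 FPKM, other than the one labelled Aged + Unsorted, had the opposite make-up. Among them, Aged + LRP1high 1 and Aged + LRP1low 1 had luteal marker medians of 25.8 and 519 FPKM. Their granulosa marker medians were 1.93 and 0.151 FPKM. Atp5g3 was at 1207 FPKM in Young granulosa cells, 0 and 0.263 in Aged, 95.3, 1.78 and 119 in Aged + LRP1high and 864 and 2.88 in Aged + LRP1low granulosa cells, and 35.6 in the library labelled granulosa Aged + Unsorted. It held 95.3% of the set in Young, 93.6% and 81.8% in Aged + LRP1high 1 and 3 and 100% in Aged + LRP1low 1 granulosa cells. Atp5g1 was at 24.2 FPKM in Young granulosa cells, 0.228 and 0.0555 in Aged, 2.02, 0.543 and 1.21 in Aged + LRP1high and 0 and 0.466 in Aged + LRP1low granulosa cells, and 156 in the library labelled granulosa Aged + Unsorted. Atp5g2 was at 34.9 FPKM in Young granulosa cells, 0 and 0.296 in Aged, 4.49, 0.609 and 25.3 in Aged + LRP1high and 0 and 0 in Aged + LRP1low granulosa cells, and 52 in the library labelled granulosa Aged + Unsorted. In the library labelled granulosa Aged + Unsorted, Atp5g1 was the most abundant of the set, as it was in most oocyte libraries. Atp5g3 was lower in oocytes than in granulosa cells by 2.18 on the log2 scale in the contrast over the 5 conditions given below, and did not pass the test there (SE 1.05, adjusted p = 0.238, limma).

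Cox6b1 and Cox6b2 code alternative forms of a subunit that faces the intermembrane space of complex IV, and Cox6b2 is known from testis. Cox6b2 was at 5.94, 0 and 20.1 FPKM in Young oocytes, 23.4 and 34.7 in Aged, 26.9 and 95.1 in Aged + Unsorted, 45.3, 94.7 and 127 in Aged + LRP1high and 6.24 and 5.67 in Aged + LRP1low oocytes. Cox6b1 was at 0.846, 111 and 50 FPKM in Young oocytes, 0 and 26.4 in Aged, 76.3 and 116 in Aged + Unsorted, 44.2, 219 and 13.3 in Aged + LRP1high and 1.84 and 3.24 in Aged + LRP1low oocytes. Cox6b2 was above 0 in 11 of 12 oocyte libraries, the exception being Young 2. In granulosa cells Cox6b2 was at 3.47 FPKM in Young granulosa cells, 0 and 0 in Aged, 10.6, 0.692 and 0 in Aged + LRP1high and 0 and 0 in Aged + LRP1low granulosa cells, and 87.5 in the library labelled granulosa Aged + Unsorted. Cox6b1 was at 180 FPKM in Young granulosa cells, 0 and 0 in Aged, 0, 0 and 100 in Aged + LRP1high and 0 and 1.42 in Aged + LRP1low granulosa cells, and 105 in the library labelled granulosa Aged + Unsorted. In Young granulosa cells Cox6b2 was 1.89% of the pair, in Aged + LRP1high 1 it was 10.6 FPKM beside a Cox6b1 level of 0, and in Aged + LRP1high 3 it was listed at 0 beside 100 FPKM of Cox6b1.

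**Figure D3:**
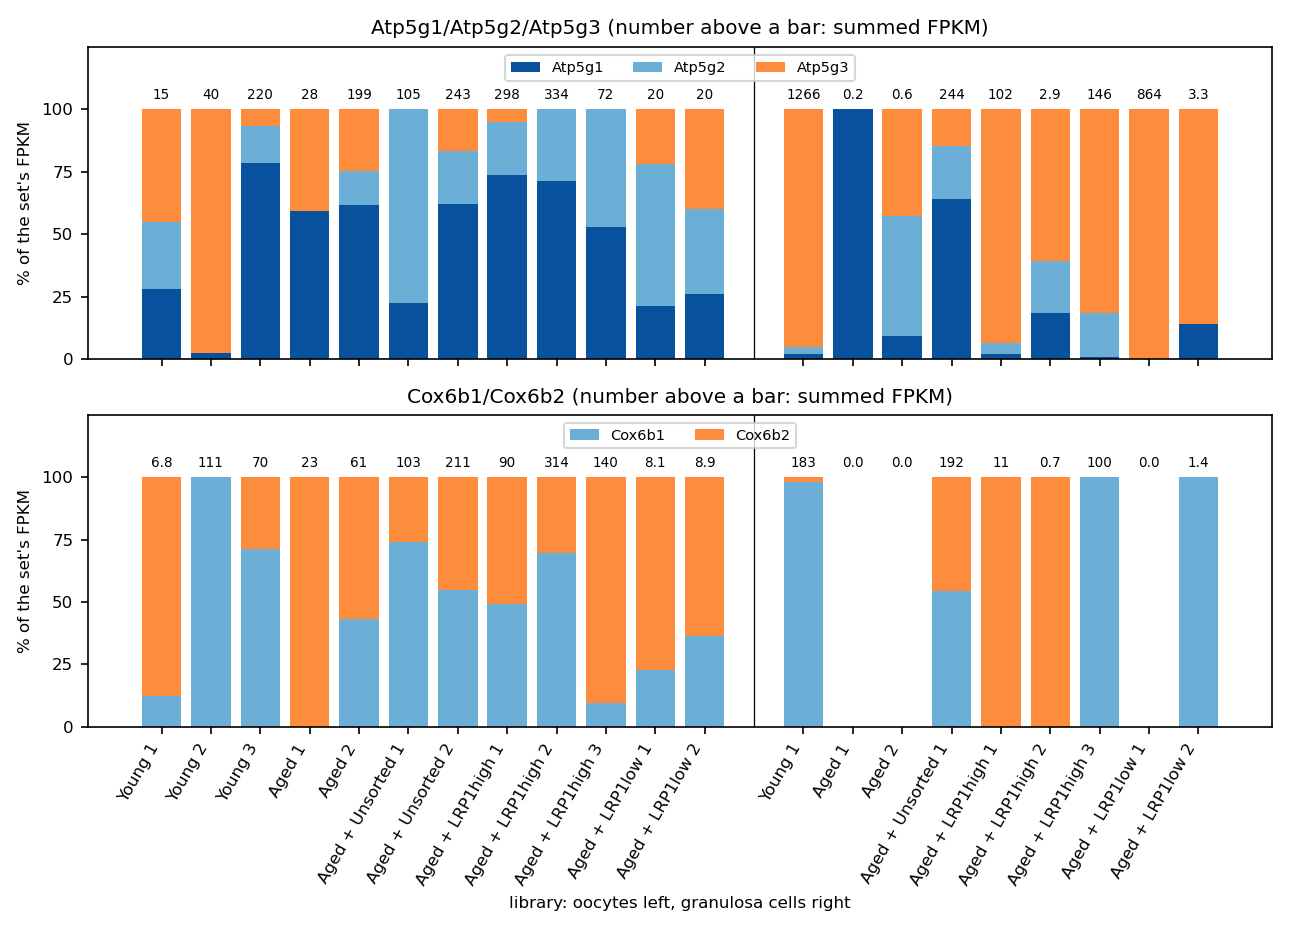
Share of the summed FPKM of subunit c genes (top) and of the Cox6b pair (bottom) taken by each gene in each library, oocytes left and granulosa cells right, with the summed FPKM above each bar. Atp5g3 takes 95.3% of its set in Young granulosa cells and 6.75% in Young 3 oocytes, and libraries with a sum of a few FPKM carry little weight.

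Cox4i1, whose product binds ATP and regulates complex IV, was at 11.2, 0.812 and 218 FPKM in Young oocytes, 14.5 and 155 in Aged, 344 and 284 in Aged + Unsorted, 157, 239 and 30.3 in Aged + LRP1high and 16 and 9.89 in Aged + LRP1low oocytes. The annotated span of Gm20388 overlaps that of Cox4i1 by 5986 bases on the same strand. Cox4i2, the form known from lung and low oxygen, was at 1.44, 0 and 1.98 FPKM in Young oocytes, 0 and 0 in Aged, 0 and 0.275 in Aged + Unsorted, 2.74, 0.265 and 0.543 in Aged + LRP1high and 4.76 and 4.11 in Aged + LRP1low oocytes. Its highest levels, 4.76 and 4.11 FPKM, were in the Aged + LRP1low oocytes, where the receptor background reached 5.54 and 6.10 FPKM. Cox6a1, the liver form of subunit VIa, was at 5.65, 87.7 and 118 FPKM in Young oocytes, 6.03 and 171 in Aged, 415 and 329 in Aged + Unsorted, 251, 487 and 247 in Aged + LRP1high and 4.45 and 12.5 in Aged + LRP1low oocytes. Cox6a2, the heart and muscle form, was at 1.61, 0 and 5.93 FPKM in Young oocytes, 0 and 0 in Aged, 10.5 and 6.9 in Aged + Unsorted, 9.62, 0 and 0.196 in Aged + LRP1high and 7.01 and 1.5 in Aged + LRP1low oocytes. Cox6a1 was therefore at least as high as Cox6a2 in every oocyte library except Aged + LRP1low 1.

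Among the Cox7a genes, Cox7a2 is the widely used form, Cox7a2l joins complexes III and IV into supercomplexes, and Cox7a1 is the heart and muscle form. Cox7a2 was at 0, 20.6 and 188 FPKM in Young oocytes, 16.7 and 244 in Aged, 161 and 364 in Aged + Unsorted, 91.2, 173 and 100 in Aged + LRP1high and 5.84 and 7.17 in Aged + LRP1low oocytes. Cox7a2l was at 0.648, 2.86 and 83.9 FPKM in Young oocytes, 0 and 95.3 in Aged, 231 and 140 in Aged + Unsorted, 76.6, 295 and 143 in Aged + LRP1high and 3.94 and 2.51 in Aged + LRP1low oocytes. Cox7a1 was at 1.34, 0 and 0 FPKM in Young oocytes, 0 and 0 in Aged, 0 and 0 in Aged + Unsorted, 2.24, 0 and 0 in Aged + LRP1high and 7.64 and 2.94 in Aged + LRP1low oocytes. Cox7a2 held the larger share in 5 of the 8 libraries rich in oocyte markers, and Cox7a2l in Aged + Unsorted 1, Aged + LRP1high 2 and Aged + LRP1high 3, at 58.8%, 63.1% and 58.7%. Only the Aged + LRP1high 1 library, among the 8 rich in oocyte markers, had any Cox7a1. Cox7b, a small structural subunit, was at 1.33, 39.7 and 64.3 FPKM in Young oocytes, 3.48 and 84.2 in Aged, 118 and 84.6 in Aged + Unsorted, 31.2, 65.7 and 22.6 in Aged + LRP1high and 2.71 and 0.784 in Aged + LRP1low oocytes. Cox7b2 was above 0 only in Aged + LRP1low 1 among oocytes, at 2.39 FPKM.

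Cox8a was at 2.83, 0 and 48.7 FPKM in Young oocytes, 0 and 181 in Aged, 151 and 194 in Aged + Unsorted, 28.6, 196 and 159 in Aged + LRP1high and 4.28 and 15.3 in Aged + LRP1low oocytes. Cox8b, a muscle form, was above 0 in oocytes only in Aged + LRP1low 1 and 2, at 1.49 and 5.32 FPKM, which is under the receptor background there. Cox8c, a testis form, was at 2.62, 0 and 1.3 FPKM in Young oocytes, 3.41 and 0 in Aged, 0 and 5.74 in Aged + Unsorted, 0, 0 and 0.16 in Aged + LRP1high and 4.67 and 4.31 in Aged + LRP1low oocytes. In Young granulosa cells Cox4i1 was at 194 FPKM, Cox6a1 at 232, Cox7a2 at 600, Cox7b at 217 and Cox8a at 165. Cox4i2, Cox6a2, Cox7b2, Cox8b and Cox8c were at 0 in Young granulosa cells, and Cox7a1 was at 6.79 FPKM. In the remaining granulosa libraries these 6 minor forms ranged from 0 to 7.54 FPKM, the highest being Cox6a2 in the library labelled granulosa Aged + Unsorted. Cox7a2 in Aged + LRP1high 3 granulosa cells, at 853 FPKM, was higher than in Young, where the other libraries with that transplant had 0 and 1.01.

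Differences between groups were tested with limma on log2(FPKM + 1) over all genes with a mean of at least 1 FPKM in the libraries of the fit, and calls needed both an adjusted p under 0.05 and more than a 1.5-fold change. In oocytes 46 of 49 members passed the filter. A member that passed only through its level in one group had to differ, so counts are read beside those of all 28004 genes tested. Between Aged and Young oocytes no member was called, where 0.0964% of genes were called higher and 0% lower, and 1 member was higher at an unadjusted p under 0.05, where 8.43% of genes were higher and 0.214% lower. The median difference of the members was 0.56 on the log2 scale, and that of all genes 0.94. Over genes with a mean of at least 10 FPKM in the libraries of the fit it was 0.92. The smallest p-values were those of Cox6b2, higher in Aged by 2.49 (SE 1.12, adjusted p = 0.515), Atp5h by 3.54 (SE 1.63) and Atp5e, subunit epsilon of complex V, by 3.52 (SE 1.69). With Aged 2 left out, so that Aged 1 stood alone, Cox5b was called lower in Aged, at -4.91 (SE 1.49, adjusted p = 0.0373), where 33% of genes were called higher and 0.0657% lower.

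Aged oocytes were represented by a library rich and one poor in oocyte markers, and this touched each comparison with them. No member was called between Aged + Unsorted and Aged oocytes, where 0% of genes were called in either direction and 6 members were higher at an unadjusted p under 0.05, where 1.7% of genes were higher and 7.04% lower. The median difference was 2.45 for members, -0.86 for all genes and 1.47 for genes with a mean of at least 10 FPKM. Cox6c2, the processed pseudogene among the members, whose reads could be split with those of Cox6c, was higher by 4.21 (SE 1.39, adjusted p = 0.254), Cox5b by 4.74 (SE 1.58) and Cox6a2 by 3.25 (SE 1.22). Without the 4 oocyte libraries low in oocyte markers the members' median was 0.43.

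LRP1high cells were the population of main interest to the study. Between Aged + LRP1high and Aged oocytes no member was called, with 0.0179% of genes called higher and 0.753% lower, and 4 members were higher at an unadjusted p under 0.05, where 0.925% of genes were higher and 9.94% lower. The median was 1.21 for members, -1.05 for all genes and 0.68 for genes with a mean of at least 10 FPKM. Cox5b, a structural subunit that binds zinc, was higher by 4.34 (SE 1.44, adjusted p = 0.207), Atp5g2 by 3.51 (SE 1.5) and Cox6a1 by 3.17 (SE 1.42). When Aged 2 was left out, 7 members were called higher in Aged + LRP1high, where 0.792% of genes were called higher and 38.7% lower. Then 8 members were called higher in Aged + Unsorted oocytes, where 1.38% of genes were called higher and 35.6% lower, and with Aged 1 left out none was called in either comparison. Without the 4 oocyte libraries low in oocyte markers the members' median difference between Aged + LRP1high and Aged turned to -0.50. Both comparisons share the Aged libraries.

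Against Aged, the members' median in Aged + LRP1low oocytes lay below 0. No member was called, where 3.09% of genes were called higher and 0.075% lower. At an unadjusted p under 0.05, 2 members were higher and 3 lower, where 13.2% and 0.953% of genes were. The median was -1.5 for members, 0.68 for all genes and -1.02 for genes with a mean of at least 10 FPKM. The members with the smallest p-values were the minor forms Cox4i2, higher by 2.44 (SE 0.78, adjusted p = 0.132), and Cox7a1, by 2.54 (SE 0.82), and Atp5e, lower at -4.67 (SE 1.85). Both Aged + LRP1low libraries were low in oocyte markers. With Aged 1 left out, Cox5a at -6.12 and Sdhd at -5.80 were called lower, where 1.8% of genes were called lower and 20.9% higher.

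Of the 6 comparisons of oocyte groups that were tested, members were called in that of Aged + LRP1high with Aged + LRP1low and in no other. It had 5 members higher and 0 lower of 46 tested (positions below are on GRCm38), where 1.21% of all genes were called higher and 24.8% lower. Cox6a1 (chr5:115345642-115348981, minus strand) averaged 329 ± 137 FPKM (SD, n = 3) in Aged + LRP1high and 8.47 ± 5.68 (SD, n = 2) in Aged + LRP1low oocytes, a difference of 5.19 on the log2 scale (SE 1.42, adjusted p = 0.0324, limma). Atp5h (chr11:115415689-115419962, minus strand) averaged 223 ± 126 and 5.09 ± 2.51 FPKM, a difference of 5.13 (SE 1.63, adjusted p = 0.0442). The lowest Aged + LRP1high library was above the highest Aged + LRP1low library for both genes. How many of all genes were apart in this way was not counted. In Aged + LRP1low 1 Cox6a1 and Atp5h, at 4.45 and 3.32 FPKM, were under the receptor background of 5.54. In Aged + LRP1low 2 they were at 12.5 and 6.86, above its background of 6.10.

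The other 3 called members were one gene each of complexes III, IV and V. Atp5o, which ties the stator of complex V to its head and lies at chr16:91925214-91931687, minus strand, was at 160, 243 and 89.2 FPKM in Aged + LRP1high and 5.53 and 2.82 in Aged + LRP1low oocytes, a difference of 4.93 (SE 1.58, adjusted p = 0.0449). Uqcrq, a small subunit of complex III at chr11:53427922-53430831, minus strand, was at 146, 628 and 44.1 against 5.74 and 4.64 FPKM, a difference of 4.71 (SE 1.58, adjusted p = 0.0495). Cox6b2, at chr7:4751792-4753094, minus strand, averaged 88.9 ± 41.0 against 5.96 ± 0.405 FPKM, a difference of 3.57 (SE 1.12, adjusted p = 0.0428). Groups did not overlap for any of these, which were named because they were called. The share of all genes without overlap was not counted, so the lack of overlap adds nothing to the calls. The receptor background was 5.54 and 6.10 FPKM in Aged + LRP1low 1 and 2. All 3 genes were under it in Aged + LRP1low 2 and close to it in Aged + LRP1low 1, where Cox6b2 was at 6.24 FPKM. The levels in Aged + LRP1low were therefore at the floor of detection. The Atp5o gene overlaps annotated genes on the opposite strand, and whether strand was used in counting was not given in the sources used here. On the same strand it overlaps the second Atp5o identifier by 1769 bases.

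By complex, the median difference between Aged + LRP1high and Aged + LRP1low oocytes was 0.17 over the 4 members of complex II, 3.25 over the 8 members of complex III, 3.57 over 17 tested in complex IV and 2.61 over 17 tested in complex V, and -1.89 over all genes. Over genes with a mean of at least 10 FPKM it was 1.57. In all, 17 members were higher and 2 lower at an unadjusted p under 0.05, where 3.17% of genes were higher and 45.9% lower. The lowest differences were those of Uqcrc1, a core protein of complex III, and of the minor form Cox8c, each at -2.38. Oocyte markers moved the same way, with 3 of 10 called higher and a median of 5.89, and 4 of 9 granulosa markers tested were called lower, at a median of -2.43. Called lower too were 3 of 5 stromal markers tested (median -2.52) and 2 of 5 luteal (-2.36). So were 1 of 4 immune (-2.35) and 1 of 4 endothelial (-1.65), and 0 of 2 red blood cell (-2.32) and 0 of 4 striated muscle markers (-2.18). Of all genes 24.8% were called lower and 1.21% higher, at the median of -1.89. Aged + LRP1low 1 and 2 had 47920 and 38934 genes at 1 FPKM or more, with receptor medians of 2.76 and 2.35 FPKM. Whether the members differed apart from the oocyte content of the libraries was not tested, and with both Aged + LRP1low libraries low in oocyte markers these cannot be told apart.

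**Figure D4:**
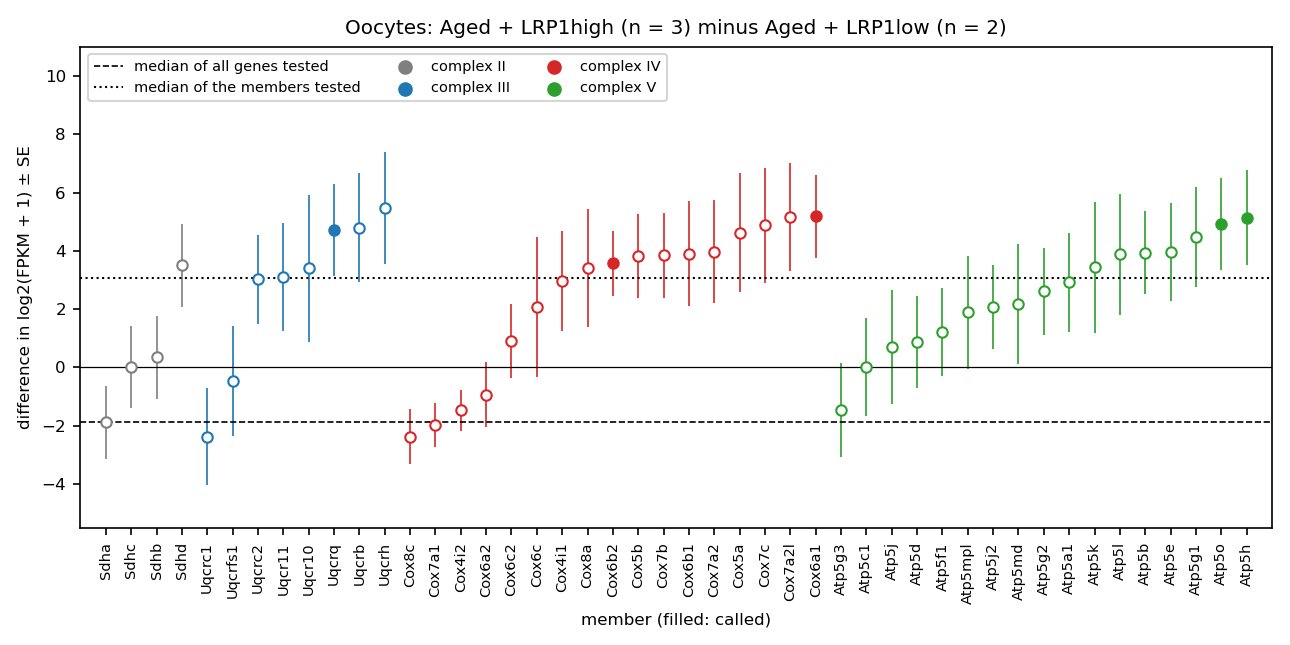
Difference in log2(FPKM + 1) ± SE of each tested member between Aged + LRP1high (n = 3) and Aged + LRP1low (n = 2) oocytes, by complex, with called members filled. The dotted line is the members' median, 3.07, and the dashed line that of all genes, -1.89.

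These calls rested on each library. No member was called with any one of the 3 Aged + LRP1high or 2 Aged + LRP1low libraries left out, nor with a pseudocount of 0.1 or a replicate block, and in these fits 0% of genes were called higher. With quantile normalization none of the 5 was called, and the 1 member called was Atp5g1. Cox6a1 was the only member called with either Aged + Unsorted library left out, at an adjusted p of 0.0457 and 0.0455, and 3 of the 5 were called without Young 2. Without Young 1, 9 members were called higher and 1 lower, where 2.06% of genes were higher and 32.4% lower. Without Young 3, 12 were higher and 0 lower, where 2.22% and 22.9% of genes were. Without Aged 1, 11 were higher and 2 lower, where 2.24% and 43.9% of genes were, and without Aged 2, 12 and 2, where 1.88% and 51.5% were. Of the 5 members, 4, 5, 4 and 5 were among those called higher in these 4 fits. Over 20 alternatives the adjusted p of Cox6a1 ran from 0.000979 to 0.246 and that of Uqcrq from 0.0298 to 0.262.

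Aged + LRP1high oocytes were also compared with Young ones. No member and 0% of genes were called, and 11 members were higher at an unadjusted p under 0.05, where 2.96% of genes were higher and 0.211% lower. The median was 1.94 for members, -0.14 for all genes and 1.45 for genes with a mean of at least 10 FPKM. Cox6b2 had the smallest p among members, higher by 3.97 (SE 1.00, adjusted p = 1), followed by Atp5h at 4.2 (SE 1.46) and Uqcrq at 3.75 (SE 1.42). Cox6b2 was at 45.3, 94.7 and 127 FPKM in Aged + LRP1high and at 5.94, 0 and 20.1 in Young oocytes. These groups did not overlap, but the gene was picked by its p, and the share of all genes without overlap was not counted. With Young 3 left out, Atp5h (6.18, adjusted p = 0.0359) and Cox6b2 (4.97, adjusted p = 0.0493) were called, where 0.7% of genes were called higher. The adjusted p over 22 alternatives reached 1 for both.

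In granulosa cells 43 of 49 members were tested among 13002 genes, and none was called in any of 3 comparisons, in which 0% of genes were called. Aged granulosa libraries had member sums of 5.90 and 8.99 FPKM, whereas the sums were 474, 31.3 and 2779 FPKM in Aged + LRP1high and 6473 and 152 in Aged + LRP1low. At an unadjusted p under 0.05, 1 member was higher in Aged + LRP1high than in Aged, where 7.99% of genes were higher and 0.515% lower. In Aged + LRP1low 5 members were higher than in Aged, where 3.05% of genes were higher and 0.738% lower. Between Aged + LRP1high and Aged + LRP1low 1 member was higher and 3 lower, where 4.14% of genes were higher and 1.01% lower. The members' median was 1.77, 2.48 and -0.22 in that order, and that of all genes 0.89, 0.31 and 0.45. Over genes with a mean of at least 10 FPKM it was 1.43, 1.73 and -0.15. Young granulosa cells had 1 library, with a sum of 15278 FPKM, the highest of all 21, and entered no test by age.

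Against Aged, the granulosa members with the smallest p were Uqcrc1 (2.55, SE 0.61), Sdhb, the iron-sulfur subunit of complex II (2.76, SE 1.14), and Atp5b (2.96, SE 1.33) for Aged + LRP1high, each with an adjusted p of 0.458 by limma. Those for Aged + LRP1low were the pseudogene Cox6c2 (4.58, SE 1.06), Cox4i1 (2.84, SE 0.90) and Cox7c (7.54, SE 2.73), each with an adjusted p of 0.904. Uqcrc1 was at 8.38, 1.67 and 7.06 FPKM in Aged + LRP1high and at 0 in both Aged granulosa libraries. Between Aged + LRP1high and Aged + LRP1low, Cox6c2 (-4.30, SE 0.97) and Atp5a1 (-2.65, SE 0.91) were lower and Uqcrc1 (2.52, SE 0.61) higher, with an adjusted p of 0.629. Without Aged + LRP1low 2, Uqcr11, Sdha, Atp5a1 and Cox6c2 were called higher in the remaining Aged + LRP1low library than in Aged, where 5.57% of genes were called higher. Atp5a1 and Cox6c2 were then called lower in Aged + LRP1high than in Aged + LRP1low, where 3.65% of genes were. The remaining library, Aged + LRP1low 1, had the highest luteal marker median, 519 FPKM. Aged + LRP1high 1 had a luteal marker median of 25.8 FPKM and Young granulosa cells one of 30.7.

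Oocytes and granulosa cells were compared by the mean of the 5 conditions in a fit of all 21 libraries. Of 44 members tested, 1 was called higher in oocytes, where 2.91% of 21767 genes were, and 0 lower, where 0.0919% were. At an unadjusted p under 0.05, 4 members were higher and 1 lower, where 20.2% and 1.23% of genes were. The called member was Cox6b2, higher by 2.42 (SE 0.58, adjusted p = 0.0366). The median was 0.85 for members, 0.62 for all genes and 1.33 for genes with a mean of at least 10 FPKM. Without the library labelled granulosa Aged + Unsorted, Cox6b2 was higher by 3.21 (adjusted p = 0.0069) and Atp5g1 (3.10, adjusted p = 0.022) and Atp5j2 (2.43, adjusted p = 0.0334) were also called, where 10.9% of genes were called higher. The adjusted p of Cox6b2 ran from 0.00402 to 0.241 over 32 alternatives. It missed the threshold without the oocyte libraries low in oocyte markers, where Atp5j2 was the member called (2.33, adjusted p = 0.0458), and in TPM rescaled without Gm10800.

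The call of Cox6b2 was also lost when any one of 12 libraries was left out, namely Aged + Unsorted 1 or 2, Aged + LRP1high 1 or 2 or Aged + LRP1low 1 or 2 among oocytes, or Aged 1 or 2, Aged + LRP1high 2 or 3 or Aged + LRP1low 1 or 2 among granulosa cells. Its difference was between 2.22 and 2.66 when libraries of groups with at least 2 were left out in turn. Within Aged + LRP1high alone, with 3 libraries of each cell type, 20 members were called higher in oocytes and 0 lower, where 12.2% of 13047 genes were called higher and 0.468% lower. The 3 granulosa libraries had granulosa marker medians of 1.93, 0.429 and 21.4 FPKM and luteal marker medians of 25.8, 0.336 and 6.95. Aged + LRP1high 2 among them had only 4842 genes at 1 FPKM or more. Whether the calls reflect cell type or the content of these libraries was not tested. Cox8a (6.61, SE 1.00), Uqcr10 (6.11, SE 1.11) and Atp5g1 (5.87, SE 1.00) differed most, with an adjusted p of 0.000286, 0.00115 and 0.000742. Gm10800 held 61.0% to 86.6% of the FPKM of these granulosa libraries, and with TPM rescaled without it 10 members were called, all higher, where 2.91% of 32833 genes were called higher and 1.24% lower. Cox6b2 was not among them.

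The LRP1high effect was compared between the cell types by the difference of the 2 differences from Aged. No member and 0% of genes were called, and 1 member was lower at an unadjusted p under 0.05, where 0.221% of genes were higher and 15.8% lower. Atp5g3 had the smallest p, with an effect lower in oocytes by -8.13 on the log2 scale (SE 2.89, adjusted p = 0.194, limma). Its levels were 11.4 and 49.4 FPKM in Aged and 15.1, 0 and 0 in Aged + LRP1high oocytes, while granulosa cells had 0 and 0.263 in Aged and 95.3, 1.78 and 119 in Aged + LRP1high. Uqcrc1 (-3.45, SE 2.01) and Sdhb (-3.23, SE 1.91) followed. With oocyte Aged 2 left out, Cox8a was called, at 7.15 (adjusted p = 0.0166), where 0.311% of genes were called higher and 35.3% lower.

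Complexes III to V also need subunits coded in mitochondrial DNA. Cytochrome oxidase subunits mt-Co1, mt-Co2 and mt-Co3 together had 0.166 to 3.25 times the FPKM of the 19 nuclear Cox genes in the 8 oocyte libraries rich in oocyte markers, 10.7 to 40.8 times in the 4 low in them, and 566 and 1231 times in Aged granulosa cells. In Young granulosa cells the ratio was 4.69. It was 39.4, 96.2 and 1.91 in Aged + LRP1high granulosa cells, 4.3 and 6.28 in Aged + LRP1low and 1.86 in the library labelled granulosa Aged + Unsorted. In the Aged granulosa libraries the mitochondrial sum was 3573 and 2231 FPKM and the nuclear sum 2.90 and 3.94, against 34473 and 7357 FPKM in Young. Of the 19 nuclear Cox genes, 0 and 2 were above the receptor background in these Aged libraries. The ratios of 566 and 1231 therefore divide by a sum near background. Across conditions mt-Co2 and mt-Co3 were called lower in oocytes than in granulosa cells, at -2.38 (SE 0.61, adjusted p = 0.0445) and -2.39 (SE 0.61, adjusted p = 0.0441), and the other 4 of 6 mitochondrial partners were not called.

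**Figure D5:**
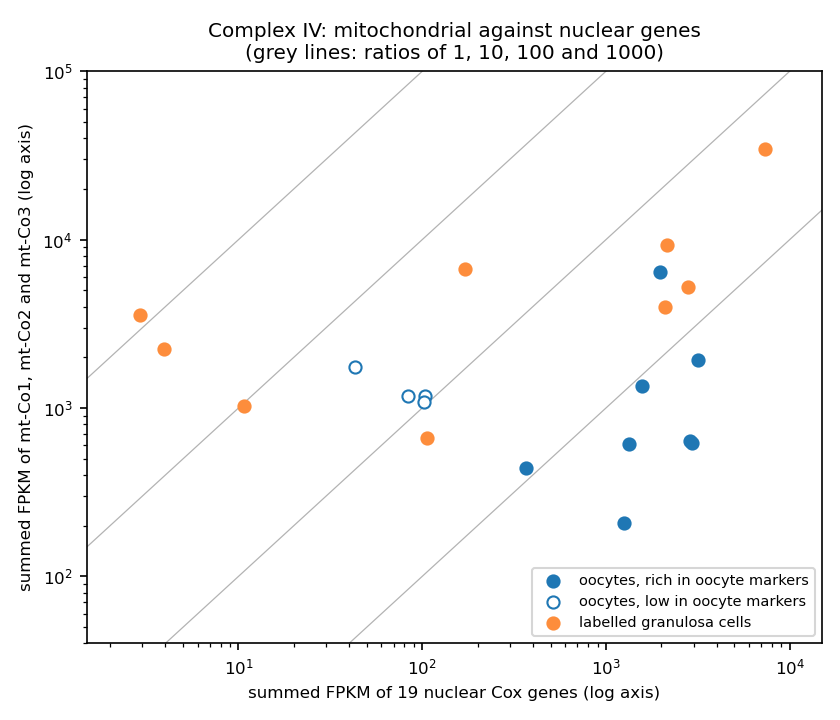
Summed FPKM of mt-Co1, mt-Co2 and mt-Co3 against that of the 19 nuclear Cox genes, each library a point, on log axes, with grey lines at ratios of 1, 10, 100 and 1000. Oocyte libraries rich in oocyte markers lie at ratios of 0.166 to 3.25 and those low in them at 10.7 to 40.8. Aged granulosa libraries lie at 566 and 1231, with nuclear sums near background, and the other libraries labelled granulosa at 1.86 to 96.2.

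Cytochrome c, which carries electrons from complex III to complex IV, has a somatic gene, Cycs, and a testis gene, Cyct. Cycs was at 1.22, 0.791 and 38.5 FPKM in Young oocytes, 21.4 and 58.6 in Aged, 102 and 66.6 in Aged + Unsorted, 32.9, 42.5 and 22 in Aged + LRP1high and 7.73 and 2.89 in Aged + LRP1low oocytes. Cyct was at 0.574, 32.1 and 19.8 FPKM in Young oocytes, 0 and 0 in Aged, 38.4 and 8.79 in Aged + Unsorted, 21, 0 and 0 in Aged + LRP1high and 4.14 and 3.13 in Aged + LRP1low oocytes. Neither was called in any comparison. Among oocyte libraries, Cyct was above Cycs in Young 2, where Cycs was at 0.791 and Cyct at 32.1 FPKM. It was also above Cycs in Aged + LRP1low 2, where both were under the receptor background of 6.10 FPKM.

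Of the genes that assemble the complexes, 4 for complex II, 6 for III, 21 for IV and 4 for V including the inhibitor Atpif1 were followed. They were called in 1 comparison only, Aged + LRP1high against Aged + LRP1low oocytes. There Tmem70, an assembly factor of complex V, was higher by 3.70 (SE 1.07, adjusted p = 0.036), and Coa5, an assembly factor of complex IV, was lower at -2.14 (SE 0.64, adjusted p = 0.0388), where 1.21% of genes were called higher and 24.8% lower. None of the 4 complex II and 6 complex III factors was called. Of 11 regulators of respiratory genes, among them Nrf1, Tfam and Ppargc1a, 10 were tested and 1 called in that comparison, Gabpa, lower at -3.07 (SE 0.79, adjusted p = 0.0286), beside the 24.8% of all genes that were called lower there. Gabpa lies head to head with the member Atp5j, their annotated spans overlapping by 701 bases on opposite strands, and Atp5j differed by 0.71 (SE 1.96).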

How the data were processed

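RNA-seq libraries of 12 oocyte and 9 granulosa samples were analysed. Per the labels, RNA was isolated with a PicoPure kit and libraries made with a KAPA stranded kit, whereas the study's methods name Smart-seq2. The submitters' processing notes name HISAT2 2.2.1, StringTie 1.3.3b and mm9, but 54577 of 55335 gene identifiers in the deposited tables, including all 49 members, carry the version and coordinates of GENCODE M21 on GRCm38, which are printed here. The deposited tables give, per gene, the coverage signal, FPKM and TPM that the authors computed with StringTie. No read counts were used, so depth was estimated from coverage as aligned bases, and no count model was run. An exact 0 can be a failed estimate.

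FPKM was summed over repeated gene identifiers and analysed as log2(FPKM + 1), on which fold changes of low genes are understated. Genes with a mean of at least 1 FPKM in a fit were tested with limma 3.58.1 (R 4.3.3), with 1 mean per group and Benjamini-Hochberg adjustment over all genes tested, and calls needed both an adjusted p under 0.05 and more than a 1.5-fold change. Oocytes, granulosa cells and all 21 libraries were fitted separately. The fits were run on simulated data with independent noise of the same spread for all genes. These had no shifts of whole libraries and no excess of zeros, so that run does not test how the fits handle such features. The members, lists and tests were chosen with earlier results of these data known. Values in every library are given for the most abundant member of each complex in oocytes and for paralog sets, and per comparison up to 5 called members with the largest change in each direction, or the 3 with the smallest p where none was called. Other genes named at the extremes of a list or as called under an alternative were chosen after their values were seen. Alternatives were a pseudocount of 0.1, no filter, TPM, quantile normalization, a replicate block, other limma settings and leaving out libraries. Those that left out the library labelled granulosa Aged + Unsorted, the oocyte libraries with an oocyte marker median under 50 FPKM, or Gm10800 were chosen after seeing the data.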

Additional observations from a re-analysis of the deposited data

How the results depend on the processing

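The number of members called depended on the settings. So did the share of all genes called, as between Aged and Young oocytes, where 0.0964% of genes were called higher in the main fit and 2.14% in TPM. Counts given in this section without that share are therefore not results about the members. Between Aged + LRP1high and Aged + LRP1low oocytes, where 5 were called, the number was 0 with a pseudocount of 0.1, 8 in TPM (6 higher, 2 lower), 9 in TPM rescaled without Gm10800 (6 higher, 3 lower), 1 with quantile normalization and 8 with limma array weights. Of the 5 members, 5, 3, 0 and 2 were called in the last 4 of these, in that order. Between Aged + LRP1low and Aged oocytes it was 3 without the filter, 3 in TPM and 3 in TPM without Gm10800 (Cox4i2, Cox7a1 and Cox8b, higher), against 0. Cox4i2 and Cox8b were under the receptor background in both Aged + LRP1low libraries, and Cox7a1, at 2.94 FPKM, in Aged + LRP1low 2. Between oocytes and granulosa cells, where 1 was called, it was 0 without the filter, 2 in TPM, 0 in TPM without Gm10800, 0 with trend and robust settings, 2 with array weights, 0 without both Aged + LRP1low oocyte libraries, 3 without the library labelled granulosa Aged + Unsorted, 20 within Aged + LRP1high and 10 there in TPM without Gm10800. With quantile normalization the 1 member called was Atp5g3, lower in oocytes at -3.05 (adjusted p = 0.0265). With a replicate block 0 members were called both between Aged + LRP1high and Aged + LRP1low oocytes and between cell types. Whether replicate numbers pair the libraries was not settled. Same-numbered oocyte libraries deviated together at correlations from -0.436 to 0.441, over 0.1 in 4 of 21 pairs. Differently numbered libraries were not compared, and in groups of 2 the deviations mirror each other, so the pairs are not independent.

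With each library left out in turn, the number of members called ranged from 0 to 1 for Aged against Young oocytes, 0 to 8 for Aged + Unsorted against Aged, 0 to 7 for Aged + LRP1high against Aged, 0 to 2 for Aged + LRP1low against Aged, 0 to 14 for Aged + LRP1high against Aged + LRP1low and 0 to 2 for Aged + LRP1high against Young. It was 0 throughout for Aged + LRP1high against Aged granulosa cells, and ranged from 0 to 4 for Aged + LRP1low against Aged, 0 to 2 for Aged + LRP1high against Aged + LRP1low granulosa cells, 0 to 3 between cell types and 0 to 1 for the difference of the LRP1high effects. A library left alone in its group was assumed to vary like the other groups. Scaling moved the median of all genes, which was -1.89 between Aged + LRP1high and Aged + LRP1low oocytes, to -0.01 with quantile normalization and -3.08 in TPM without Gm10800. The cause of these moves was not tested.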
